A study of Mus musculus with 12 samples.

Results

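The expression of 8 genes known as markers of the pyramidal neurons of hippocampal fields CA3 and CA2 was followed in nuclear RNA from mouse hippocampus: Pvrl3 (the older symbol of Nectin3), Amigo2, Iyd, Hs3st4, Rgs14, Pcp4, Cacng5 and Bok. They were taken by symbol from a table of 24015 rows. All 8 were present, and all 8 were among the 15668 genes with enough counts to be tested (10 or more counts in 3 or more of the 12 libraries). The filter therefore removed none of them.

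The 12 libraries were titled Basal, Early, Late and Reactivated, 3 of each. All came from 1 mouse strain (ArcCreERT2 x R26R-STOP-floxed eYFP, genotype +/+), in which the promoter of Arc, an activity-induced gene, drives a drug-dependent Cre recombinase that switches on a yellow fluorescent protein. The marking thus depends on the activity of the Arc promoter and on the timing of the drug. Per the labels' protocols, all mice received 4-Hydroxytamoxifen 1 h before contextual fear conditioning and were kept dark for 24 h before it. Some brains were collected at 1.5 to 2 h from the end of the task. Others were collected on day 5, after 48 h of darkness and a return to the light cycle, and part of the later cohort was exposed to the fear-inducing tone and context. Nuclei were fixed, stained for NeuN, Arc and GFP, and sorted, with 10000 nuclei per condition from pools of 10 to 12 mice and 3 biological replicates. The sources used here do not give the age of the mice. The treatment label is the same in all 12 libraries (a foot shock and tissue collection on day 0, with no recall), so the groups rest on the titles alone, and which of the stained populations each title stands for is not stated in the labels.

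CA3 pyramidal neurons receive mossy fibre input from dentate granule cells, excite one another through recurrent collaterals and send axons to CA1. CA2 is a small field between CA3 and CA1, known for synapses that resist potentiation under usual stimulation and for its part in social memory. The genes described here mark these cells but belong to different families. Pvrl3 and Amigo2 encode adhesion proteins of the cell surface, Iyd and Hs3st4 encode enzymes, Rgs14 and Pcp4 encode regulators of G protein and calmodulin signalling, Cacng5 encodes an auxiliary subunit of AMPA receptors, and Bok encodes a member of the Bcl2 family. None is exclusive to CA3 and CA2. Pcp4 is also made by dentate granule cells, and Hs3st4 also by neurons of deep cortical layers.

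Total counts ran from 4838166 to 11120255 per library, and the 8 genes together held 473 to 2554 counts. Rbfox3, the gene of NeuN, lay between 1596 and 2346 normalized counts in every library (counts scaled for library size and composition). Arc lay at 102 to 183 normalized counts for Basal, 337 to 554 for Early, 541 to 635 for Late and 500 to 766 for Reactivated. Rn45s, the ribosomal RNA precursor, took 4.72% to 12.2% of the counts for Basal, 6.23% to 12.9% for Early, 27.9% to 36.5% for Late and 18.8% to 27.7% for Reactivated. The ranges of Basal and Early overlapped, and both lay below those of Late and Reactivated. Late in turn lay above Reactivated without overlap. Differences of Late or Reactivated from Basal or Early, and of Reactivated from Late, therefore cannot be told apart from differences that go with this share. The gene Lars2 took 3.54% to 4.61% of the counts for Reactivated and 0.182% to 1.19% in the libraries of the other groups. Differences of Reactivated from the other groups cannot be told apart from differences that go with the Lars2 share either. Normalized counts and fold changes are relative to the bulk of genes. With libraries scaled to the same total count instead, the log2 fold change of the median gene against Basal was -0.87 in Late and -0.46 in Reactivated, and the members shifted with it. Values below that are said to allow for the Rn45s share come from a fit with its log2 value as a covariate.

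Iyd, Amigo2 and Pvrl3 had their highest level in Early, while Pcp4 had its highest level in Reactivated. Their promoters are shown to compare these patterns. Each is the RefSeq window of 300 bases on GRCm38.p6, from 250 bases before to 50 bases after the start of the gene, written 5′ to 3′ on the strand of the gene with each CpG in capitals. The windows are Iyd at chr10:3540024-3540323 (plus strand), Amigo2 at chr15:97247238-97247537 (minus strand), Nectin3 at chr16:46496918-46497217 (minus strand) and Pcp4 at chr16:96467356-96467655 (plus strand).
Iyd: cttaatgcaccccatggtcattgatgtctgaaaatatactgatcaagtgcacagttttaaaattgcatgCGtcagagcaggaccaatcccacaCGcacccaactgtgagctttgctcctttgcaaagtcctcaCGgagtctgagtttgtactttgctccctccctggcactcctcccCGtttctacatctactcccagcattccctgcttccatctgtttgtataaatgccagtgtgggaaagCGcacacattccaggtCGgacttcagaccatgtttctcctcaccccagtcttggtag
Amigo2: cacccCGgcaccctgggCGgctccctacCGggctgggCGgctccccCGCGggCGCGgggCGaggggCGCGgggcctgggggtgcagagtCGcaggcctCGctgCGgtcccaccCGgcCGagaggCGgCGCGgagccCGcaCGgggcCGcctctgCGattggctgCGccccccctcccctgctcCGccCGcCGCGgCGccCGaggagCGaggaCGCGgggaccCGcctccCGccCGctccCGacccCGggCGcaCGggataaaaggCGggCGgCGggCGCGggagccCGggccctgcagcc
Nectin3: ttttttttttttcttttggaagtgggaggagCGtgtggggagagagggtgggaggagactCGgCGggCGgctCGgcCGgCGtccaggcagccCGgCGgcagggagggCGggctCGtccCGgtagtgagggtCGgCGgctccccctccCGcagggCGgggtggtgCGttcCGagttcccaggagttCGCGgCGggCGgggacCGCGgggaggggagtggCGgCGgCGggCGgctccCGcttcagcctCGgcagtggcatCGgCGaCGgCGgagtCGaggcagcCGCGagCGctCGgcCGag
Pcp4: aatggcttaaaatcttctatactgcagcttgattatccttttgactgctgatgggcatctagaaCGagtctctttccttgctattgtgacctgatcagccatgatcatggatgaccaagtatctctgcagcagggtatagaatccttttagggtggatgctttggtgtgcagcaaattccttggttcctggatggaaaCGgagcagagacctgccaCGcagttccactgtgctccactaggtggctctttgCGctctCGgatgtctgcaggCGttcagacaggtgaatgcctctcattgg

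The 4 windows fall into 2 kinds. The Iyd window is 49.0% G and C with 6 CpG, and the Pcp4 window is 48.7% G and C with 6 CpG. The Amigo2 window is 83.3% G and C with 46 CpG, and the Nectin3 window is 73.7% with 40 CpG. Over all 32851 promoter windows of the same table the median was 52.7% G and C and 7 CpG. Of the genes not printed, Hs3st4 had 79.3% and 47 CpG, and Bok had 56.3% and 16 CpG. Cacng5 had 2 windows, with 57.3% and 5 CpG and with 63.3% and 17 CpG. Rgs14 had no entry. The genes with their highest level in Early stood in both kinds: Iyd shares its base composition with Pcp4 and not with Amigo2 or Nectin3.

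Words of activity-dependent transcription factors were searched on both strands of the 8 windows. TGACGTCA (CRE), GCGTGGGCG and GCGGGGGCG (Egr), CCGGAAGT (Ets), the SRF CArG box and the MEF2 site, the last 2 by name, were searched beside TGANTCA (AP-1) and CANNTG (E-box). AP-1 matched once, in the second Cacng5 window, against 7.81% of all windows. E-boxes matched 3 times in Iyd, once in Pcp4, once in the first and 2 times in the second Cacng5 window, and in none of the others, against 72.3% of all windows. The other words matched in none of the 8, against 1.79% (CRE), 0.612% and 2.91% (Egr), 3.89% (Ets), 1.63% (SRF CArG box) and 3.19% (MEF2) of all windows. TATAAA, looked for after the Iyd window had been seen, matched once in Iyd, at base 222 of the window, and in 13.6% of all windows. No match overlapped another. A match of letters is not a binding site.

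Pvrl3, a nectin that joins cells through partners on the facing membrane, was higher in all 3 other groups than in Basal. Its normalized counts were 45.3, 52.7 and 61.7 for Basal, 377, 281 and 396 for Early, 349, 337 and 302 for Late and 336, 175 and 173 for Reactivated. All 9 libraries of the other groups lay above all 3 Basal libraries. The log2 fold change against Basal was 2.70 ± 0.26 (SE) in Early (6.50-fold, adjusted p = 3.79e-05, edgeR's quasi-likelihood test with Benjamini-Hochberg adjustment over all genes tested), 2.61 ± 0.26 in Late (6.10-fold, adjusted p = 2.545e-06) and 2.07 ± 0.26 in Reactivated (4.19-fold, adjusted p = 7.95e-05). As with every gene here, a larger share of CA3 and CA2 nuclei among those sorted and more RNA per nucleus cannot be told apart in pooled nuclei. Early and Late, the neighbours at the top of the order, differed by -0.09 ± 0.23 (95% interval -0.54 to 0.36). With libraries scaled to the same total, Late against Early was -0.84 and passed the threshold. Within Reactivated, library 1 lay near the Early and Late level and libraries 2 and 3 near 175. Reactivated against Early was -0.63 ± 0.23 (adjusted p = 0.0553) and became -1.01 (adjusted p = 0.0039) without Reactivated 1. Reactivated against Late was -0.54 ± 0.23 (adjusted p = 0.111) and became -0.92 (adjusted p = 0.00235) without that library. Allowing for the Rn45s share, Reactivated against Basal was 1.35 and missed the threshold (adjusted p = 0.0523).

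Amigo2, a transmembrane protein with leucine-rich repeats that is widely used as a CA2 marker, was highest in Early. It had 54.4, 52.7 and 92.6 normalized counts for Basal, 254, 178 and 256 for Early, 122, 114 and 123 for Late and 49.6, 115 and 154 for Reactivated. The Early libraries lay above all others. Amigo2 rose 3.37-fold in Early against Basal (log2 fold change 1.75 ± 0.32, adjusted p = 0.00384). It was lower in Late than in Early by 1.91-fold (-0.93 ± 0.31, adjusted p = 0.0262) and lower in Reactivated than in Early by 2.12-fold (-1.08 ± 0.31, adjusted p = 0.0213). The 3 Late libraries lay above the 3 Basal libraries, at a log2 fold change of 0.82 ± 0.33 that missed the threshold (adjusted p = 0.0506). The Reactivated libraries ran from below Basal to above Late, and Reactivated against Basal was 0.67 ± 0.33 (adjusted p = 0.118). Late against Basal passed in 10 of 24 alternatives, among them without Basal 3 (1.16, adjusted p = 0.0162), Reactivated 1 (0.82, adjusted p = 0.0106) or Reactivated 3 (0.82, adjusted p = 0.0337). Reactivated against Basal passed without Basal 3 (1.01, adjusted p = 0.0374) or Reactivated 1 (0.98, adjusted p = 0.00984). The call of Late against Early was lost without Early 1 (-0.86), Early 3 (-0.84), Late 1 (-0.95), Late 2 (-0.90) or Late 3 (-0.95), with adjusted p-values of 0.0602 to 0.0832, and that of Reactivated against Early without Early 1 (-1.01, adjusted p = 0.0767). With the Rn45s share allowed for, both were -1.41 and missed the threshold (adjusted p = 0.210 and adjusted p = 0.175).

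Iyd encodes iodotyrosine deiodinase, which recovers iodide from iodinated tyrosines, and is a transcript that marks CA3. It had 14.2, 15.7 and 23.0 normalized counts for Basal (raw counts of 11, 14 and 32), 102, 101 and 210 for Early, 43.2, 50.2 and 54.2 for Late and 53.7, 69.5 and 48.8 for Reactivated. No Basal library reached any other library, and no Early library overlapped with Late or Reactivated. Iyd rose 7.56-fold in Early against Basal (log2 fold change 2.92 ± 0.33, adjusted p = 0.000139), 2.71-fold in Late (1.44 ± 0.35, adjusted p = 0.00344) and 3.16-fold in Reactivated (1.66 ± 0.34, adjusted p = 0.00203). It was lower than in Early by 2.79-fold in Late (-1.48 ± 0.30, adjusted p = 0.00142) and by 2.39-fold in Reactivated (-1.26 ± 0.30, adjusted p = 0.00851). Late and Reactivated, the middle neighbours, differed by 0.22 ± 0.31 (95% interval -0.39 to 0.83). The increases of Late and Reactivated over Basal fell short of the threshold when the Rn45s share was allowed for, at 0.15 and 0.73 (adjusted p = 0.907 and adjusted p = 0.357). The decreases from Early passed in all 24 alternatives run.

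Hs3st4 adds sulfate to heparan sulfate chains at the 3-O position, which changes the proteins that bind them. Its order differed from that of Iyd and Amigo2, with the highest level in Late. Normalized counts were 175, 176 and 292 for Basal, 484, 519 and 826 for Early, 1595, 1427 and 1100 for Late and 862, 925 and 653 for Reactivated. Each Late library lay above all other libraries, and each Basal library below. Hs3st4 rose 2.82-fold in Early (log2 fold change 1.50 ± 0.25, adjusted p = 0.00188), 6.35-fold in Late (2.67 ± 0.26, adjusted p = 1.978e-06) and 3.76-fold in Reactivated (1.91 ± 0.25, adjusted p = 0.00011) against Basal. It was 2.25-fold higher in Late than in Early (1.17 ± 0.24, adjusted p = 0.00149), a difference of -0.02 when the Rn45s share was allowed for. It was 1.69-fold lower in Reactivated than in Late (-0.76 ± 0.24, adjusted p = 0.0340), and this call was lost without Late 1 (-0.64), Late 2 (-0.73), Reactivated 1 (-0.80) or Reactivated 3 (-0.62), and with the Rn45s share allowed for (-0.39, adjusted p = 0.0977). Reactivated and Early overlapped, with a difference of 0.41 ± 0.24 (adjusted p = 0.211), which passed without Early 3 (0.68, adjusted p = 0.0414).

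Rgs14, a regulator of G protein signalling that limits synaptic potentiation in CA2, had its lowest level in Basal and its highest in Reactivated. It had 94.6, 121 and 158 normalized counts for Basal, 147, 135 and 253 for Early, 289, 256 and 272 for Late and 245, 412 and 388 for Reactivated. Basal and Early overlapped, while Late and Reactivated both lay above Basal. Early against Basal was 0.50 ± 0.26 (adjusted p = 0.365). Rgs14 rose 2.16-fold in Late (log2 fold change 1.11 ± 0.26, adjusted p = 0.00283) and 2.78-fold in Reactivated (1.47 ± 0.26, adjusted p = 0.000761) against Basal. With the Rn45s share allowed for, these were 0.20 (adjusted p = 0.849) and 0.83 (adjusted p = 0.224). Rgs14 was also 1.96-fold higher in Reactivated than in Early (0.97 ± 0.25, adjusted p = 0.0137), although Reactivated 1 lay below Early 3. That call was lost without Early 1 (0.86, adjusted p = 0.0678) or Early 2 (0.80, adjusted p = 0.0737), and with the Rn45s share allowed for (0.43, adjusted p = 0.571). Late against Early was 0.61 ± 0.25 (adjusted p = 0.0661), and it passed without Early 3 (0.96, adjusted p = 0.00552) and without Reactivated 1 (0.61, adjusted p = 0.0399).

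Pcp4, a small protein that binds calmodulin and speeds its exchange of calcium, was the member that stood out in Reactivated. It had 106, 81.9 and 115 normalized counts for Basal, 65.8, 79.3 and 92.7 for Early, 85.3, 70.0 and 95.2 for Late and 191, 153 and 157 for Reactivated. The 3 Reactivated libraries lay above the other 9, which overlapped among themselves. Pcp4 was 1.65-fold higher in Reactivated than in Basal (log2 fold change 0.72 ± 0.20, adjusted p = 0.0126), 2.10-fold higher than in Early (1.07 ± 0.20, adjusted p = 0.00307) and 1.99-fold higher than in Late (0.99 ± 0.21, adjusted p = 0.00309). Against Late the call held in all 24 alternatives. Against Basal it was lost without Basal 2 (0.59, adjusted p = 0.0633), and allowing for the Rn45s share gave 0.32 against Basal and 0.72 against Early, neither past the threshold. Early against Basal was -0.35 ± 0.21 (95% interval -0.75 to 0.06) and Late against Basal was -0.27 ± 0.21 (95% interval -0.68 to 0.14). With libraries scaled to the same total, Late against Basal was -1.09 and passed the threshold.

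Cacng5 encodes a transmembrane AMPA receptor regulatory protein that marks CA2. It was the member with its highest level in Basal. Normalized counts were 92.0, 79.7 and 90.4 for Basal, 57.4, 77.3 and 37.6 for Early, 39.6, 37.0 and 48.6 for Late and 85.4, 34.3 and 30.2 for Reactivated. Basal lay above Early and Late without overlap, and Reactivated 1 lay within Basal. Cacng5 fell by 2.08-fold in Late against Basal (log2 fold change -1.06 ± 0.36, adjusted p = 0.0261). Early against Basal was -0.60 ± 0.35 (adjusted p = 0.440) and Reactivated against Basal was -0.85 ± 0.36 (adjusted p = 0.0735). The Late call was lost without Basal 1 (-1.05), Basal 3 (-1.03), Late 1 (-1.02) or Late 2 (-0.98), with adjusted p-values of 0.0517 to 0.0845. It was also lost with the Rn45s share allowed for (-0.95, adjusted p = 0.500). Without Reactivated 1, Reactivated against Basal was -1.43 (adjusted p = 0.003). That library also had a summed count of 12 granule cell markers of 3783, against 1642 and 1694 in the other 2 Reactivated libraries. Whether this has a part in its Cacng5 level was not tested.

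Bok, a Bcl2 family protein with homology to Bax and Bak1, had the smallest fold change of the 5 members that rose against Basal in Late. It had 31.1, 29.2 and 41.6 normalized counts for Basal, 57.4, 51.7 and 61.8 for Early, 64.8, 47.6 and 69.1 for Late and 82.6, 64.2 and 61.3 for Reactivated. Every Basal library lay below every other library, while the other 3 groups overlapped. Bok rose 1.77-fold in Late (log2 fold change 0.82 ± 0.25, adjusted p = 0.0154) and 2.00-fold in Reactivated (1.00 ± 0.25, adjusted p = 0.00662) against Basal, and was 0.73 ± 0.25 in Early (adjusted p = 0.118). The Late call was lost without Basal 1 (0.73), Basal 2 (0.72), Late 1 (0.77) or Late 3 (0.71), with adjusted p-values of 0.0533 to 0.0632. With the Rn45s share allowed for, Late was 0.25 and Reactivated 0.57, neither past the threshold.

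**Figure D1:**
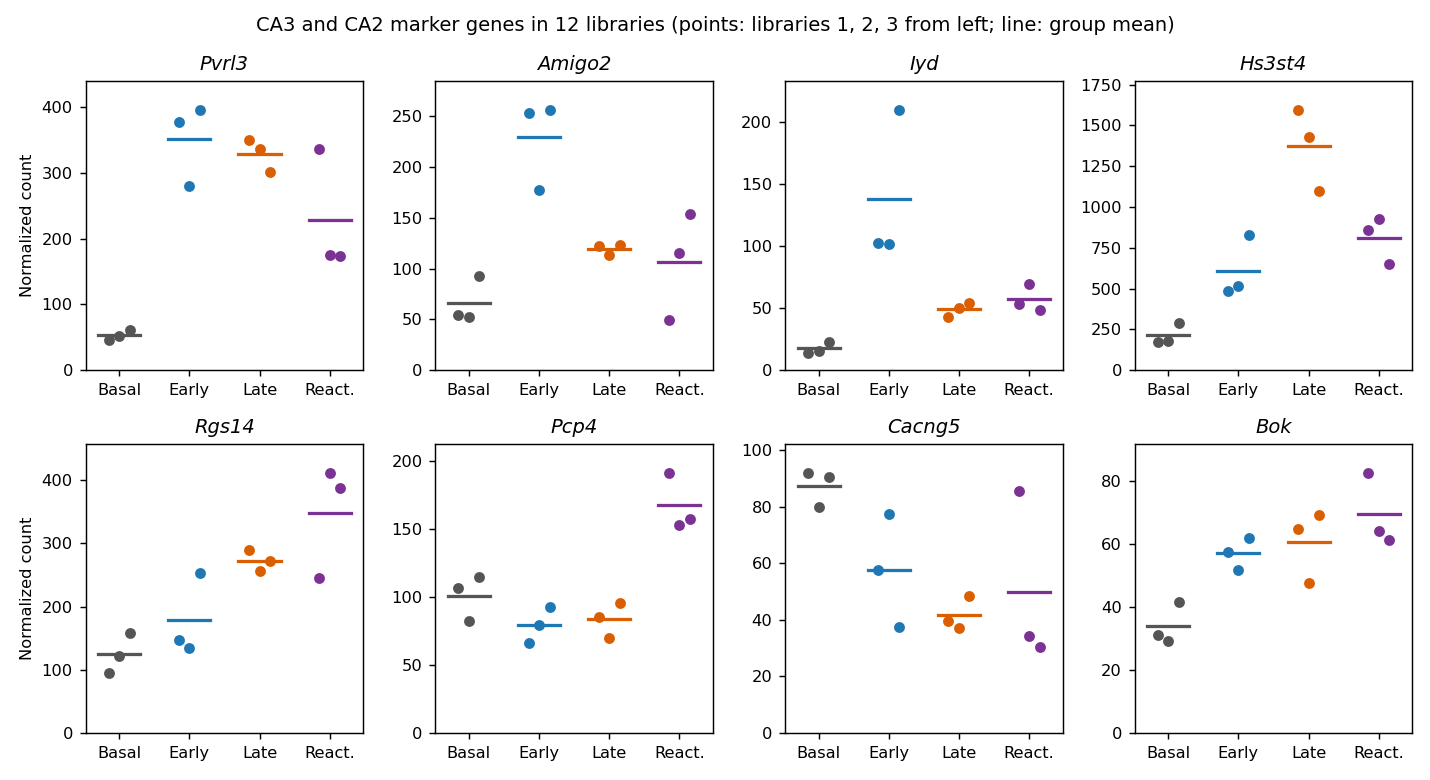
Normalized count (vertical axis, from 0) of each of the 8 genes in the 12 libraries. Points are libraries 1, 2 and 3 of a group from left to right and lines are group means. Basal lies lowest for Pvrl3, Iyd, Hs3st4 and Bok in every library, Pcp4 is highest in the 3 Reactivated libraries, and Cacng5 is highest on average in Basal.

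Between Early and Basal, 4 of the 8 genes rose (Pvrl3, Iyd, Amigo2 and Hs3st4) and none fell. Of all genes tested 6.03% were called, 3.36% higher and 2.66% lower. In 6 of 8 the libraries of these groups did not overlap, against 23.4% of all genes tested. The median log2 fold change of the 8 was 1.11, against 0.01 over all genes tested. By p-value Pvrl3 ranked 10 and Iyd 37 of 15668. Each of the 4 was called in all 24 alternatives, with the Rn45s share allowed for and without any one library.

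Late against Basal called 6 of 8, with 5 higher and Cacng5 lower, where 49.1% of all genes tested were called, 25.4% higher and 23.7% lower. Reactivated against Basal called 6 of 8, all higher, where 39.4% were called, 20.6% higher and 18.8% lower. Medians of the 8 were 0.97 and 1.24, against -0.03 and 0.02 over all genes tested. The libraries did not overlap in 7 of 8 between Late and Basal (62.5% of all genes tested) and in 6 of 8 between Reactivated and Basal (45.8%). These counts are nearer to their background than the count for Early. With the Rn45s share allowed for, 2 of 8 were called in Late and 1 of 8 in Reactivated. Over all 15668 genes tested, that fit called 1191 in Late in place of 7687, and 870 in Reactivated in place of 6169. With libraries scaled to the same total, Iyd (0.64), Rgs14 (0.29) and Bok (0.01) were no longer called in Late, nor Bok (0.53) and Pcp4 (0.24) in Reactivated. Under that scaling Pcp4 was called lower in Late (-1.09) and Cacng5 lower in Reactivated (-1.35). These 3 comparisons share the Basal libraries.

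Among the other groups the genes did not move one way. Late against Early called 3 of 8, with Hs3st4 higher and Iyd and Amigo2 lower, where 42.3% of all genes tested were called, 22% higher and 20.3% lower. The libraries did not overlap in 4 of 8, against 59.9% of all genes tested. Reactivated against Early called 4 of 8, with Rgs14 and Pcp4 higher and Iyd and Amigo2 lower, where 26.2% were called, 13.5% higher and 12.7% lower, and 3 of 8 did not overlap, against 39.1%. Reactivated against Late called 2 of 8, with Pcp4 higher and Hs3st4 lower, where 22.6% were called, 10.3% higher and 12.3% lower, and 2 of 8 did not overlap, against 39.7%. With libraries scaled to the same total, Hs3st4 was no longer called in Late against Early (0.42) or in Reactivated against Late (-0.38), nor Rgs14 in Reactivated against Early (0.62). Calls gained under that scaling in Late against Early were Pvrl3 (-0.84), Pcp4 (-0.65) and Cacng5 (-1.22). Pvrl3 was gained in Reactivated against Early (-1.04) and Rgs14 in Reactivated against Late (0.73). Without that scaling, the medians of the 8 in these comparisons were -0.01, 0.01 and 0.20. When the 4 groups were tested together, 7 of 8 genes differed between some of them, as did 58.6% of all genes tested. Cacng5 was the exception (adjusted p = 0.0733).

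**Figure D2:**
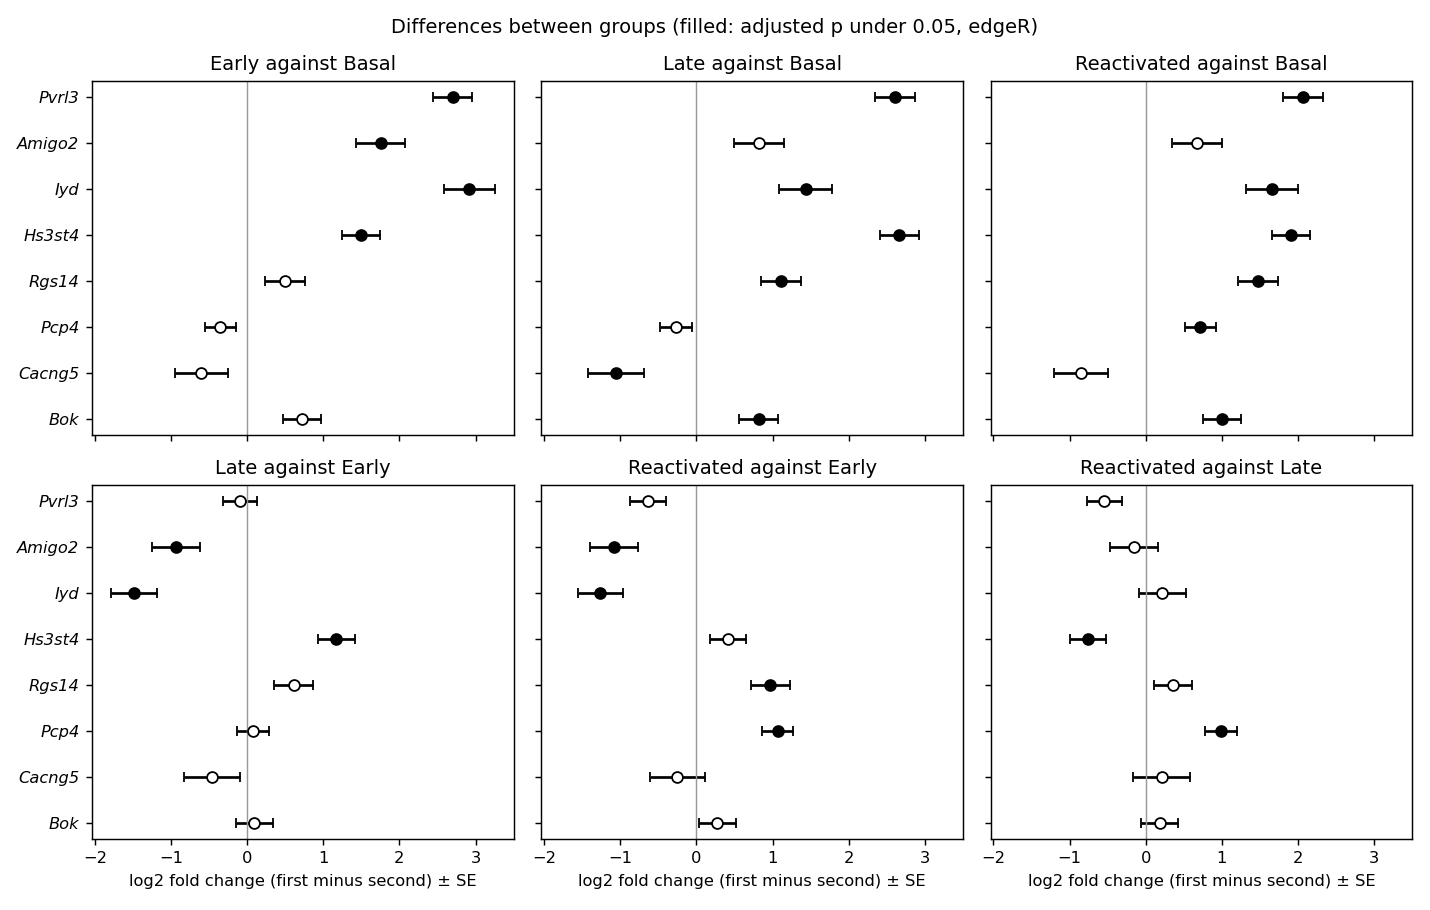
Log2 fold change ± SE (horizontal axis) of each gene in the 6 comparisons, the first group named minus the second. Filled points passed an adjusted p of 0.05 in edgeR. In Early against Basal the 4 filled points lie between 1.50 and 2.92, and in the lower panels filled points lie on both sides of 0.

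The libraries of a group also differed from one another in a shared way. Basal 3 was the highest Basal library for 7 of 8 genes, and Early 3 the highest Early library for 7 of 8. These are the libraries with the highest Rn45s share of their groups, 12.2% and 12.9%. Leaving both out gave 4 of 8 called in Early against Basal, 7 of 8 in Late against Basal and 7 of 8 in Reactivated against Basal. Reactivated 1 was the highest Reactivated library for 4 genes (Pvrl3, Pcp4, Cacng5 and Bok) and the lowest for 2 (Amigo2 and Rgs14).

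The genes were not one block across libraries. Of the 28 pairs, 18 had a positive Pearson r of log2 CPM over the 12 libraries and 10 a negative one. CPM are counts scaled for library size and composition, as the normalized counts are, here with a prior count of 2. These correlations are descriptions, since libraries of a group share their treatment and the pairs share depth and scaling. Iyd went with Pvrl3 (r = 0.837) and Amigo2 (r = 0.822), and Hs3st4 with Pvrl3 (r = 0.850). Cacng5 was negative with the other 7, from -0.015 with Pcp4 to -0.834 with Rgs14. After group means were subtracted, Cacng5 was positive with Pvrl3 (0.456), Bok (0.397) and Pcp4 (0.310) and still negative with Rgs14 (-0.773). On that scale Amigo2 and Pvrl3 went in opposite directions (r = -0.436 within groups, 0.627 over all), and Amigo2 and Rgs14 together (0.755).

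Among 10307 named genes with a mean of at least 50 normalized counts over all 12 libraries, those most like each member across these libraries were found by the same r. For Iyd they were Trps1 (0.971), Prkca (0.951) and Robo1 (0.935). Robo1, a guidance receptor for Slit proteins, was also among those most like Pvrl3 (0.960), with Peak1 (0.962) and Camk1d (0.957). For Amigo2 they were Fam60a (0.941), Nell1 (0.929) and Cntnap5c (0.926). Hs3st4 was closest to Col11a1 (0.993), Col4a1 (0.987) and Ankrd35 (0.983), of which the first 2 encode collagen chains. Rgs14 was closest to Rusc1 (0.970), Junb (0.970), an immediate early transcription factor, and Rbfa (0.964). Bok was closest to Magi3 (0.953), Tle3 (0.948) and Zranb3 (0.939), and Pcp4 to Ccdc135 (0.927), Neurl1a (0.912) and Rpl35 (0.908). Cacng5 was closest to Msi2 (0.899), Prpf4 (0.886) and Gnal (0.884). The number of genes with r over 0.9 was 389 for Hs3st4 and 226 for Rgs14, against 42 for Pvrl3, 27 for Bok, 14 for Iyd, 8 for Amigo2, 3 for Pcp4 and 0 for Cacng5.

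The 8 other genes listed for CA3 moved mostly with the CA3 members. In Early against Basal 6 rose and 1 fell, and in Late and in Reactivated against Basal 7 rose and 1 fell, with medians of 1.24, 1.60 and 1.27. Of all genes tested, 6.03%, 49.1% and 39.4% were called in these comparisons, the background for this and every list below. Cdh24, a cadherin, had 122 ± 23.3 normalized counts for Basal, 540 ± 142 for Early, 515 ± 5.75 for Late and 345 ± 42.3 for Reactivated (SD, n = 3), the order of Pvrl3. Socs2, a suppressor of cytokine signalling, had 123 ± 30.0, 353 ± 48.0, 570 ± 102 and 295 ± 14.2 in the same order of groups. Ociad2 had 254 ± 33.0, 483 ± 15.9, 592 ± 1.52 and 479 ± 31.0. Grik4, a kainate receptor subunit of CA3, rose by 1.08 ± 0.19 in Early and 1.65 ± 0.19 in Late on the log2 scale. The gene that fell each time was St18, a zinc finger transcription factor, from 630 ± 56.7 in Basal to 246 ± 59.1 in Early, 194 ± 20.6 in Late and 267 ± 76.3 in Reactivated. St18 was named after its values were seen, as were Grik4 and the CA2 genes Sostdc1, Avpr1b and Ntf3.

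The 10 other genes listed for CA2 were more mixed. In Early against Basal 2 rose and none fell, in Late 5 rose and 2 fell, and in Reactivated 4 rose and 1 fell, with medians of 0.36, 0.30 and 0.56. The counts in Late and Reactivated stand beside 49.1% and 39.4% of all genes tested. Necab2, a calcium-binding protein, rose each time, from 170 ± 63.6 normalized counts in Basal to 318 ± 73.1 in Early, 424 ± 22.0 in Late and 491 ± 51.9 in Reactivated. Stard5, a sterol-binding protein, rose in Late, with 410 ± 21.4 against 205 ± 17.4 in Basal, 183 ± 32.6 in Early and 190 ± 13.2 in Reactivated. Nr3c2, the mineralocorticoid receptor, fell in Late and Reactivated against Basal, with log2 fold changes of -0.49 ± 0.15 and -0.52 ± 0.15. Avpr1b, the vasopressin receptor that marks CA2, had 13.7 ± 4.50 in Basal and 33.6 ± 6.90 in Late, and rose by 1.26 ± 0.41. Sostdc1 had 45.0 ± 6.41 in Reactivated and 4.35 ± 2.69 in Late. Ntf3 fell in Late, with a log2 fold change of -1.90 ± 0.54 against Basal.

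**Figure D3:**
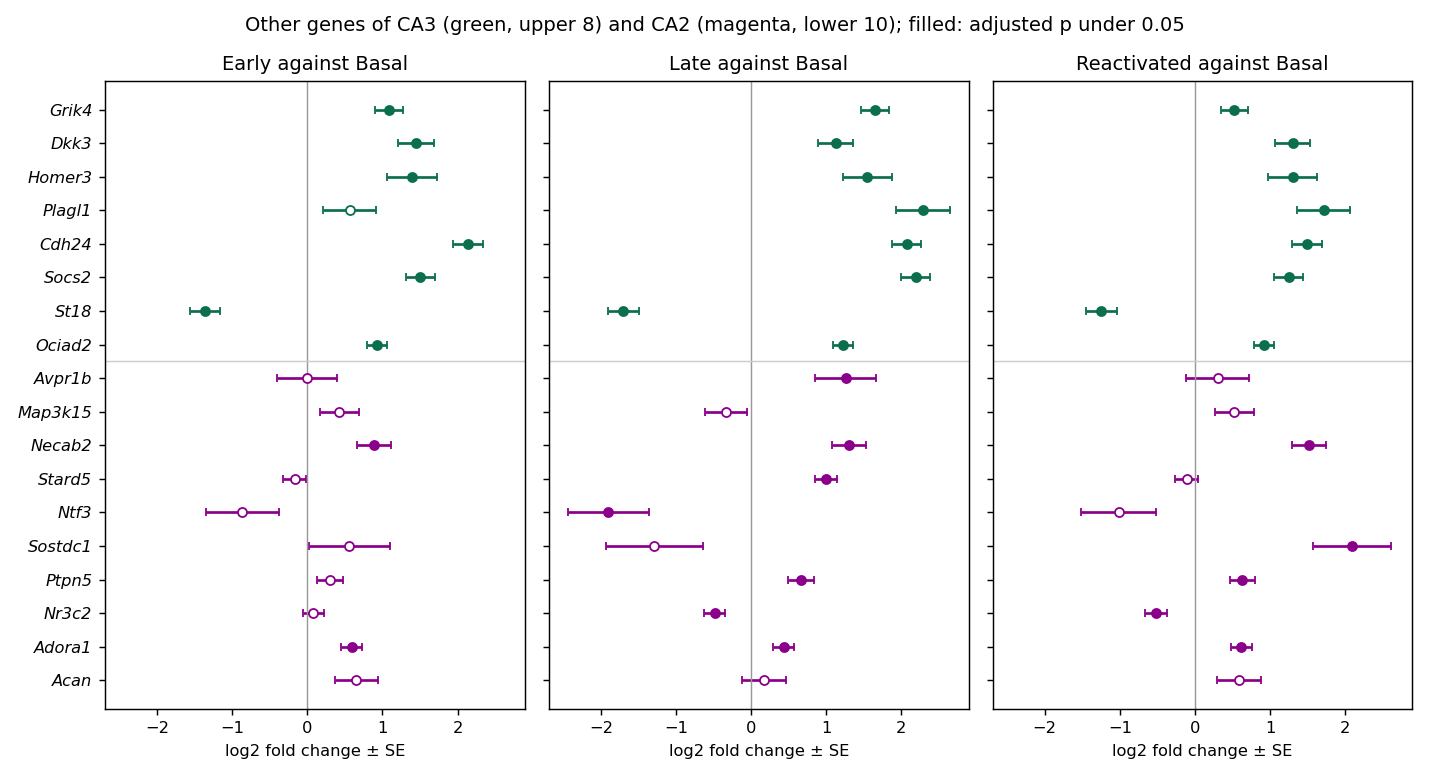
Log2 fold change ± SE (horizontal axis) against Basal of the 8 other CA3 genes (upper, green) and the 10 other CA2 genes (lower, magenta). Filled points passed an adjusted p of 0.05 in edgeR. The CA3 genes lie right of 0 except St18, and the CA2 genes lie on both sides of 0.

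Relatives of the members from the same families were counted in the same way. Their counts stand beside 6.03% of all genes tested called in Early, 49.1% in Late and 39.4% in Reactivated against Basal, and 22.6% in Reactivated against Late. Many of the counts in Late and Reactivated lie near these shares. Neither relative of Amigo2 rose: Amigo1 and Amigo3 both fell in Late and in Reactivated against Basal, with log2 fold changes of -0.58 ± 0.14 and -0.59 ± 0.14 for Amigo1 and -0.73 ± 0.26 and -1.10 ± 0.27 for Amigo3. Of 5 relatives of Cacng5, none was called in Early against Basal, while 2 rose in Late and 1 in Reactivated. Cacng8, the main such subunit of hippocampal pyramidal neurons, rose by 1.15 ± 0.13 in Late, where Cacng5 fell. Of 7 nectin relatives of Pvrl3, 1 rose in Early, 4 rose in Late, and 2 rose and 1 fell in Reactivated. Cadm3 was the one in Early, at 0.58 ± 0.15 beside 2.70 for Pvrl3. Of 6 relatives of Hs3st4 in the list, 3 passed the filter, and Hs3st2 rose by 1.06 ± 0.34 in Late and 1.22 ± 0.34 in Reactivated.

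Among 10 relatives of Rgs14, 1 rose and 1 fell in Early against Basal, 2 rose and 1 fell in Late, and 3 rose and 2 fell in Reactivated. Rgs11 rose by 1.25 ± 0.21, 1.85 ± 0.21 and 1.13 ± 0.21 on the log2 scale in these comparisons. Rgs9 fell in each, with log2 fold changes of -1.02 ± 0.20, -1.30 ± 0.21 and -1.33 ± 0.21. Rgs17 rose by 2.24 ± 0.23 in Late. Among 10 Bcl2 family relatives of Bok, none was called in Early, 4 rose and 2 fell in Late, and 4 rose in Reactivated. Bcl2l11 and Bbc3, which promote cell death, rose in Late by 1.78 ± 0.26 and 1.36 ± 0.22, and Bcl2, which opposes it, by 1.19 ± 0.23. All 6 calmodulin and calmodulin-binding relatives of Pcp4 rose in Reactivated against Basal, and 5 of 6 were higher in Reactivated than in Late, as Pcp4 was. Nrgn, neurogranin, had 3620 ± 809 normalized counts in Reactivated against 1073 ± 101 in Basal and 1712 ± 126 in Late, and Gap43 had 359 ± 39.6 against 76.0 ± 34.9 and 277 ± 57.1.

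Markers of other hippocampal cells moved at the same time. Of 10 CA1 markers, 9 rose in Early, 9 in Late and 10 in Reactivated against Basal, and none fell. Their summed normalized count ranged from 983 to 1399 for Basal, 2477 to 2922 for Early, 3561 to 4188 for Late and 3336 to 4222 for Reactivated. Of 12 dentate granule cell markers, 11, 12 and 11 fell in these comparisons, and their sum ranged from 9896 to 15003 for Basal, 2466 to 2971 for Early, 1912 to 2044 for Late and 1642 to 3783 for Reactivated. The sum of the 8 CA3 and CA2 members ranged from 609 to 874, 1422 to 2133, 2064 to 2589 and 1665 to 1948 in the same order. Without Hs3st4 its group means were 484 ± 84.6, 1090 ± 204, 957 ± 41.9 and 1026 ± 15.8 (SD, n = 3), so that the higher sum in Late came from Hs3st4. Sums are of counts and are not corrected for gene length.

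Set against one another, these sums gave a ratio of members to CA1 markers of 0.585 ± 0.0637 for Basal, 0.634 ± 0.197 for Early, 0.590 ± 0.0251 for Late and 0.476 ± 0.0889 for Reactivated. The ranges of the 4 groups overlapped, except that Late (lowest 0.571) lay just above Reactivated (highest 0.571). The ratio to granule cell markers was 0.0597 ± 0.0252 for Basal, 0.632 ± 0.205 for Early, 1.18 ± 0.0948 for Late and 0.891 ± 0.351 for Reactivated, and each Basal library lay below all others. With Hs3st4 in the sum, the ratio to CA1 markers thus varied less between groups than the ratio to granule cell markers. Without Hs3st4 the mean member sum was 484 for Basal, 1090 for Early, 957 for Late and 1026 for Reactivated. That of the CA1 markers was 1193, 2724, 3947 and 3924. The sum of the other members thus did not rise with the CA1 sum from Early to Late and Reactivated. Single members differed from this sum: Rgs14 and Pcp4 were called higher in Reactivated than in Early, and Iyd and Amigo2 lower. Against 8 genes of excitatory neurons in general the ratio was 0.0346 ± 0.0094 for Basal, 0.0765 ± 0.0109 for Early, 0.0931 ± 0.00977 for Late and 0.0692 ± 0.00312 for Reactivated. The part of the other cell types in the members' differences was not tested.

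**Figure D4:**
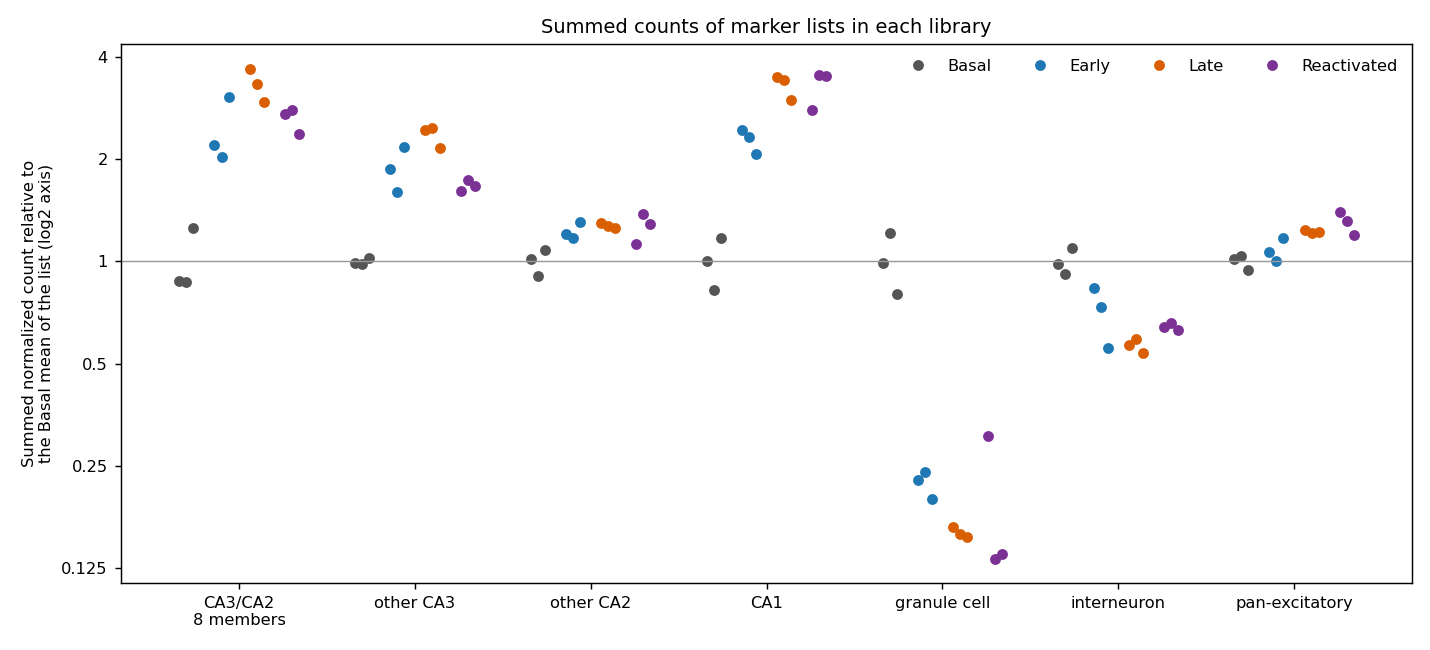
Summed normalized count of each marker list in each library, relative to the Basal mean of that list (log2 axis). Points are libraries, coloured by group. The members and the other CA3 and CA1 lists lie above 1 in all Early, Late and Reactivated libraries, and the granule cell list lies below 1 in them.

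Markers from outside the pyramidal layer moved as well. Their counts stand beside 6.03% of all genes tested called in Early, 49.1% in Late and 39.4% in Reactivated against Basal. Of 8 subiculum and cortex markers, 2 rose in Early, 5 rose and 1 fell in Late, and 6 rose and 1 fell in Reactivated against Basal, and their sum ranged from 2618 to 3825 for Basal, 3693 to 4151 for Early, 10384 to 20095 for Late and 6948 to 12681 for Reactivated. Foxp2, a deep cortical layer gene, had 54.7 ± 12.5 normalized counts for Basal, 44.9 ± 2.02 for Early, 370 ± 124 for Late and 113 ± 27.1 for Reactivated. It was a small part of the mean Late sum of 15952. Most of that sum was Bcl11b (1240 ± 166 for Basal and 7649 ± 3049 for Late) and Rorb (601 ± 257 and 5819 ± 1907). Tle4 of the same list, named after its values were seen, had a lower mean in Late (215 ± 16.2) than in Basal (306 ± 17.6). Late 1, Late 2 and Late 3 had the same order in this sum (20095, 17378 and 10384) as in Hs3st4. This order was not particular to it. It was also that of the CA1 (4188, 4092 and 3561), microglia (9737, 7754 and 5664) and mossy cell sums (4494, 4052 and 3534). The interneuron sum had another order (3003, 3120 and 2854). Of the 5 tested microglia markers, none was called in Early, 3 rose and 2 fell in Late and 2 rose in Reactivated against Basal, and the sum ranged from 667 to 799 for Basal, 629 to 783 for Early, 5664 to 9737 for Late and 821 to 2093 for Reactivated. Itgam and Cx3cr1 rose in Late, P2ry12 fell in it, and Tmem119, C1qa and C1qb were too low to be tested. Nearly all of the microglia sum in Late was Cx3cr1 (330 ± 40.9 for Basal and 3841 ± 1404 for Late) and Itgam (284 ± 37.1 and 3820 ± 645). P2ry12 had 59.9 ± 10.9 for Basal and 14.8 ± 5.23 for Late, and Csf1r 39.5 ± 3.27 and 14.1 ± 1.96. Of 12 interneuron markers, 4 fell and 2 rose in Early, 5 fell in Late, and 6 fell and 2 rose in Reactivated, with sums of 4859 to 5822 for Basal, 2952 to 4423 for Early, 2854 to 3120 for Late and 3335 to 3489 for Reactivated. Of 8 markers of mossy cells, the excitatory neurons of the dentate hilus, 1 rose and 1 fell in Early, 2 rose in Late, and 3 rose and 1 fell in Reactivated, with sums of 882 to 1002 for Basal, 1020 to 1130 for Early, 3534 to 4494 for Late and 1305 to 1588 for Reactivated. Most of the mossy cell sum in Late was Csf2rb2, at 424 ± 40.1 normalized counts for Basal and 3310 ± 502 for Late (SD, n = 3). No marker of the subiculum and cortex, microglia, interneuron or mossy cell lists was at 0 in all libraries of a group.

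Markers of astrocytes, oligodendrocyte precursors, vessels and choroid plexus had lower sums in Late than in Reactivated. Of all genes tested, 22.6% were called between these 2 groups, and 6.03%, 49.1% and 39.4% in Early, Late and Reactivated against Basal. Of 8 astrocyte markers, none was called in Early, 2 fell in Late and 1 rose in Reactivated against Basal, and 6 were higher in Reactivated than in Late. Their sum ranged from 2598 to 5079 for Basal, 2954 to 5007 for Early, 2049 to 2421 for Late and 3432 to 7617 for Reactivated. Of 6 markers of oligodendrocyte precursors, none was called in Early, 2 fell in Late and 3 rose in Reactivated, and 5 were higher in Reactivated than in Late, with sums of 105 to 158 for Basal, 102 to 146 for Early, 71.9 to 82.9 for Late and 244 to 591 for Reactivated. Of 6 choroid plexus markers, none was called in Early, 1 rose and 2 fell in Late and 1 rose in Reactivated, with sums of 997 to 1661 for Basal, 684 to 2658 for Early, 643 to 679 for Late and 1274 to 2187 for Reactivated. In Reactivated against Late, 4 of the 6 were higher and 1 was lower. Of the 5 tested blood vessel markers, none was called in Early, 3 fell in Late and 1 fell in Reactivated. In Reactivated against Late only 1 of the 5 was called, as higher, near the 22.6% of all genes tested. The sum of all 8 was 81.8 to 457 for Basal, 65.1 to 82.8 for Early, 31.7 to 52.3 for Late and 97.7 to 237 for Reactivated, and Ly6c1 was at 0 in all 3 Late libraries. Of 6 genes of neuronal nuclei in general, 3 rose in each of the 3 comparisons with Basal and none fell, with sums of 95621 to 140036 for Basal, 168546 to 198620 for Early, 173407 to 192357 for Late and 121068 to 148342 for Reactivated. Whether any of these markers have a part in the levels of Hs3st4 and the other members was not tested.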

How the data were processed

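Nuclear RNA-seq of 12 libraries was analysed from the deposited table of counts per gene symbol. Per the submitters' processing notes, Bowtie2 2.0, Cufflinks 2.2, DESeq2 and the mouse build mm9 were used, in roles not stated. The counter and whether it used strand is not given in the sources used here, so reads of overlapping or antisense genes cannot be told apart. The deposited counts are called normalized, but they are whole numbers with unequal totals (4838166 to 11120255) and were used as raw counts. Genes with 10 or more counts in 3 or more libraries (15668 of 24015) were tested with edgeR 4.0.16 (TMM, quasi-likelihood test, 4 group means in 1 fit) in R 4.3.3, two-sided, with Benjamini-Hochberg adjustment and a threshold of 0.05. "Rose" and "fell" mean that a gene passed. The SE is the log2 fold change over the square root of F, and 95% intervals are 1.96 SE to each side. This is the normal distribution's multiple, so the intervals can be narrower than the test implies. For Amigo2 in Reactivated against Basal the interval of 0.03 to 1.31 left out 0, at an unadjusted p = 0.0594 in edgeR. Alternatives were other scaling, filters and tests (DESeq2 1.42.0, limma 3.58.1), an Rn45s covariate, a replicate block and leaving out libraries. Between Basal and Early the 3 same-numbered pairs of libraries deviated together (r of 0.143 to 0.484 across genes). Between Late and Reactivated the 3 same-numbered pairs were also positive, but lower for 1 and 2 (0.059, 0.066 and 0.166). The labels name nothing that a number shares. P-values measure the spread between pools of mice. The members and lists were chosen with earlier results of these data known. Named were all members, up to 3 genes per other list with the lowest p for any difference and a mean of at least 50 in some group, and the 3 genes most like each member, without unnamed gene models and small RNAs. The promoters come from RefSeq (GRCm38.p6), with 7 of 8 members matched, and no other coordinates are given because that build is not mm9. The result of 1 marker list is not reported here.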

Additional observations from a re-analysis of the deposited data

How the results depend on the processing

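Of the 25 differences called among 48 (8 genes in 6 comparisons), 10 were called in the same direction in all 24 alternatives: Pvrl3, Iyd, Amigo2 and Hs3st4 in Early against Basal, Pvrl3 and Hs3st4 in Late against Basal, Hs3st4 in Reactivated against Basal, Iyd in Late and in Reactivated against Early, and Pcp4 in Reactivated against Late. The number of genes called in Early against Basal was 4 without any one library. It was 4 to 7 in Late against Basal, 5 to 8 in Reactivated against Basal, 2 to 4 in Late against Early, 2 to 5 in Reactivated against Early and 1 to 2 in Reactivated against Late, where leaving out Late 1, Late 2 or Reactivated 3 each gave 1. In Reactivated against Early it was 2 without Early 1. With the Rn45s share as a covariate the number fell from 6 to 2 in Late and from 6 to 1 in Reactivated against Basal, and was 1 in each of the other 3 comparisons of Late and Reactivated. Since the share goes with the groups, the 2 cannot be told apart. In Late against Early it was 5 with libraries scaled to the same total and 5 in limma-voom, against 3.

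Signs changed in 1 called result, Hs3st4 in Late against Early with the covariate (-0.016), and otherwise in uncalled ones, of which Rgs14 in Late against Early (0.61) and Hs3st4 in Reactivated against Early (0.41) had been farthest from 0 of those turned by scaling or the covariate. The same covariate gave, in Late against Early, Rgs14 -0.19, Bok -0.43 and Pcp4 -0.40, in Reactivated against Early, Hs3st4 -0.41 and Bok -0.11, and in Reactivated against Late, Amigo2 0.0055. With libraries scaled to the same total, Late against Early was -0.11 for Rgs14, -0.64 for Bok and -0.65 for Pcp4 (adjusted p = 0.0238 in edgeR), Reactivated against Early was -0.12 for Bok, and Reactivated against Late was 0.22 for Amigo2. Upper quartile scaling gave -0.12 for Bok and -0.14 for Pcp4 in Late against Early. Limma-voom gave 0.045 for Pvrl3 in Late against Early, and 0.0016 for Amigo2 and -0.14 for Cacng5 in Reactivated against Late. Without single libraries, Late against Early ranged from -0.013 (without Late 3) to 0.24 for Bok, from -0.036 (without Early 1) to 0.21 for Pcp4, also negative without Late 3, and from -0.23 to 0.010 (without Early 3) for Pvrl3, which was 0.0075 without Early 3 and Basal 3 together. Reactivated against Early ranged from -0.84 to 0.040 (without Early 2) for Cacng5, also positive without Reactivated 3. Reactivated against Late ranged from -0.51 to 0.16 for Amigo2 and from -0.38 to 0.47 for Cacng5, with 0.16 and -0.38 without Reactivated 1. The cause of these changes was not tested.

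Scaling to the same total moved the median log2 fold change of all genes to -0.87 in Late and -0.46 in Reactivated against Basal, -0.78 and -0.37 against Early, and 0.38 in Reactivated against Late, with 1401 genes higher and 9069 lower in Late against Basal in place of 3981 and 3706. Upper quartile scaling moved it to -0.26 in Late against Basal (3016 higher and 5114 lower), -0.25 in Late against Early and 0.15 in Reactivated against Late. The median of the 8 genes minus that of all genes was 1.02 in Late against Basal under the same total, against 1.00. Over all genes, calls ranged from 488 (without Basal 2) to 2590 (limma-voom) in Early against Basal, around 944, from 1191 (covariate) to 10470 (same total) in Late against Basal, around 7687, and from 870 (covariate) to 7070 (same total) in Reactivated against Basal, around 6169. They ranged from 827 to 10106 in Late against Early, 130 to 5352 in Reactivated against Early and 2135 to 4981 in Reactivated against Late.

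Of 18 pairs of libraries with the same number, 4 had a correlation of deviations over 0.1 (range -0.217 to 0.484), and 3 of these were the pairs of Basal and Early. Basal 2 correlated more with Early 1 (0.168) than with Early 2 (0.143). With the replicate number as a block, Early against Basal called the same number of members (4), and its count over all genes moved by less than 1.5 times. Over all comparisons 45 of 48 results stayed on their side of the threshold, none was lost, and 3 passed, namely Amigo2 in Late against Basal (0.88), Rgs14 in Late against Early (0.66) and Pvrl3 in Reactivated against Early (-0.66). Depth limits Iyd most, with raw counts of 11 to 32 in Basal.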
